A study of Homo sapiens with 10 samples.

Results

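The mRNA levels of 10 genes for α- and β-tubulin were followed in drug-resistant and tumor spheroid (TS) lung cancer cells. The members were the rows of the deposited expression table whose symbols are TUBB, TUBB4B, TUBB2A, TUBB2B, TUBB3 and TUBB6, the β-tubulins, and TUBA1B, TUBA1C, TUBA1A and TUBA4A, the α-tubulins. All 10 of 10 were found among the 46427 genes listed, and all 10 passed the filter on low counts. Poly(A) RNA was sequenced in 10 libraries of H460 and A549 cells, which are established human lung cancer cell lines. H460 cells in 2-dimensional (2D) culture with serum gave 3 parental libraries, 2 libraries of cells that survived 5 nM paclitaxel (PR), 1 library of cells that survived 4 µM cisplatin (CR) and 1 library of cells that survived 0.5 µM doxorubicin (DR). Each drug was given for 3 days, fresh medium followed for 3 more days, and the cells that attached after re-plating were used for sequencing. TS cells, which the labels call CTC after the culture method, were grown in suspension in serum-free medium with growth factors, with 1 library for H460 and 1 for A549, and A549 cells in 2D culture gave 1 library. The question was how the genes of the paclitaxel target differ between cells that survived paclitaxel and cells that survived the DNA-damaging drugs, and then how each group stands against its 2D culture.

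Microtubules are hollow polymers of α/β-tubulin dimers that build the mitotic spindle and carry transport in the cell. Paclitaxel binds β-tubulin within the polymer and stabilizes it, whereas cisplatin crosslinks DNA and doxorubicin poisons topoisomerase II. Cells adjust tubulin mRNA to the pool of free dimers, since TTC5 recognizes the first residues of a nascent tubulin chain on the ribosome and recruits factors that degrade the mRNA. TUBB, TUBB4B, TUBA1B and TUBA1C are broadly expressed isotypes, TUBB2A, TUBB2B, TUBB3 and TUBA1A are abundant in neurons, TUBA4A is abundant in platelets, and TUBB3 is the isotype most often discussed with resistance to taxanes.

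Depth, as the sum of counts over genes, ranged from 59499787 to 89541774 reads. The 10 tubulins took between 0.156% of them, in the CR library, and 0.937%, in parental library 1, and no member had fewer than 1392 reads in any library, so the number of libraries limited precision more than depth did. The deposited names of the libraries have 2 forms, one for parental libraries 1 and 3, PR library 1 and the TS and A549 libraries, and another for parental library 2, PR library 2 and the CR and DR libraries, and values within a form are given where they bear on a result. The keratin genes KRT8 and KRT18 were above 190.4 FPKM in every library, whereas EPCAM was at most 0.114 FPKM and CDH1 at most 0.0266 FPKM in all H460 libraries. Of 4 immune markers only CD68 exceeded 1 FPKM in any library, and its range was 15.0 to 69.8 FPKM, with all parental libraries below the PR, CR and DR libraries. The summed endothelial markers were at most 0.182 FPKM, the summed fibroblast markers lay between 0.430 and 26.7 FPKM, and the summed neuronal markers lay between 3.07 and 18.6 FPKM. The study's methods speak of separate experiments for its data in general but tie no library to a culture of its own, so p-values measure only the spread between these libraries, which may be technical. The tool that made the deposited read counts is not given in the sources used here, and whether they are counted reads or estimates from coverage was not settled, so reads here means the deposited values.

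The first codons of the members, and the last codons of 4 β-tubulins, are shown. The first ones encode the residues that the autoregulation machinery recognizes, and the last ones show which mRNAs can be told apart. Sequences and positions are from GENCODE 29 on the GRCh38 build. On chromosome 6, TUBB lies at chr6:30720201-30725426 (+ strand), TUBB2A at chr6:3153669-3157526 (- strand) and TUBB2B at chr6:3224261-3231730 (- strand). TUBB4B lies at chr9:137241213-137243707, TUBB3 at chr16:89921392-89938761 and TUBB6 at chr18:12307669-12344320, all on the + strand. On chromosome 12, TUBA1B lies at chr12:49127782-49131397 (- strand), TUBA1A at chr12:49184796-49189324 (- strand) and TUBA1C at chr12:49188736-49274603 (+ strand), and TUBA4A lies at chr2:219249711-219278170 (- strand). The transcript used for each gene has 4 exons. The lines give the first 30 coding bases, 5′ to 3′, with the first 4 codons in capitals.
TUBB: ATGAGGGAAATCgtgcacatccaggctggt
TUBB4B: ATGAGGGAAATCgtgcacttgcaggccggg
TUBB2A: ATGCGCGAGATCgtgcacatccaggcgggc
TUBB2B: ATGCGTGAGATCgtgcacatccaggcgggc
TUBB3: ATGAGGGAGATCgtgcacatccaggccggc
TUBB6: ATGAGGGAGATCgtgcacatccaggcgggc
TUBA1B: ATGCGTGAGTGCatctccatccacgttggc
TUBA1C: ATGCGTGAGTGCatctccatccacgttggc
TUBA1A: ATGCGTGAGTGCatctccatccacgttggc
TUBA4A: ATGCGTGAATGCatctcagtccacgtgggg
Codon 4 was ATC in all 6 β-tubulins and TGC in all 4 α-tubulins. The first 12 coding bases took 4 forms among the β-tubulins and 2 forms among the α-tubulins, so the start of the reading frame alone does not separate all members.

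The coding ends of 2 pairs of β-tubulins follow, as the last 60 coding bases before the stop codon, in exons.
TUBB coding end: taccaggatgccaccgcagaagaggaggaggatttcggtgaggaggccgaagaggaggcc
TUBB3 coding end: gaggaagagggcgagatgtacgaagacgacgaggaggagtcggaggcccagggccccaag
TUBB2A coding end: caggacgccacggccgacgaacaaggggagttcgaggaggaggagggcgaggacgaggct
TUBB2B coding end: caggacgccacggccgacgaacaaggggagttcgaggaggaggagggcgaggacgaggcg
Compared position by position without alignment, the ends of TUBB2A and TUBB2B differed at 1 of these 60 bases, whereas those of TUBB and TUBB3 differed at 35. TUBB has 444 codons and TUBB3 has 450, so the 35 can include shifted positions and is no count of substitutions. Over the whole coding sequence, identity was between 80.9% and 98.1% in the 15 β-tubulin pairs, highest for TUBB2A and TUBB2B, and between 84.4% and 97.2% in the 6 α-tubulin pairs. In windows of 100 bases along the chosen transcripts, 56.4% of those of TUBB2A, 46.2% of those of TUBB2B and 37.2% of those of TUBA1B were also present in a transcript of another gene, against 5.10% in TUBB, 2.86% in TUBB4B and 0% in TUBB6. How reads shared between genes were counted is not stated, so the split between TUBB2A and TUBB2B and among TUBA1A, TUBA1B and TUBA1C is uncertain. For TUBB3, 89.0% of windows were shared, all of them with AC092143.1, a gene at chr16:89919165-89936092 on the same strand that overlaps both MC1R and TUBB3 and is no row of the deposited table. MC1R, the melanocortin receptor gene just upstream, had between 2.83 and 7.51 FPKM in the H460 2D libraries, far below TUBB3. TUBA4A overlaps TUBA4B on the opposite strand, which had at most 0.300 FPKM in any library. Strandedness of the libraries is not stated, so reads of the pair cannot be told apart, and 22 tubulin pseudogenes together held reads equal to 0.164% to 0.345% of those of the members.

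Upstream bases are shown for TUBB4B, the member with the most CCAAT boxes, and for TUBB3. In CR and DR against parental cells, described below, TUBB4B passed the test and TUBB3 did not. No difference between these members was tested. Windows of 250 bases before the start were taken from RefSeq on GRCh38.p14 and matched for 10 of 10 members, and only bases before the start of the GENCODE transcript are printed. The stretch for TUBB4B is chr9:137241037-137241212 and that for TUBB3 is chr16:89923092-89923278, both on the + strand, with each CCAAT (or ATTGG, the same letters on the other strand) and each TTTGAA (searched on both strands) in capitals. These motifs do not overlap each other.
TUBB4B upstream bases: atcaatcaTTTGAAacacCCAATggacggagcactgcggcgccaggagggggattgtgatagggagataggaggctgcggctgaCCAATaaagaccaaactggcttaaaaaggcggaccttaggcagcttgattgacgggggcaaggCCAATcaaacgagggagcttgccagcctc
TUBB3 upstream bases: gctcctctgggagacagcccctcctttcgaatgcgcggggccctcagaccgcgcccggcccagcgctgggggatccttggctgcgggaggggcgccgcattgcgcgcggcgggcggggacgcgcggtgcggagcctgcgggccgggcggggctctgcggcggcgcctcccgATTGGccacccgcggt
CCAAT, the letters bound by factor NF-Y, was found in the 250-base windows of 7 of 10 members, and 32.0% of all 35116 windows of that length hold it. The windows of TUBB2A, TUBA1B and TUBA4A lacked it. Of all members, TUBA1B had the largest fall against parental cells in both drug comparisons described below. A link between motif and level was not tested. TUBB4B held 3 copies and TUBA1A held 2, and 9.53% of all windows hold 2 or more. TTTGAA, the core of the cell cycle homology region, was found in TUBB4B and TUBA1C, and 13.3% of all windows hold it. A match is a description of letters and shows no binding.

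Levels per length differed widely among the members. In parental H460 cells TUBA1B, the main α-tubulin, had 2137, 1705 and 1244 FPKM (fragments normalized for transcript length and library size), TUBB had 639.6, 522 and 371 FPKM, and TUBB2A, the lowest, had 46.7, 38.1 and 31.0 FPKM. TUBA1B stood first in all 10 libraries. In the parental libraries TUBB, TUBA1A, TUBB4B and TUBA1C followed in that order in each library, although the ranges of neighbours in this order overlapped across libraries. The ranges of TUBA4A and TUBB3 also overlapped, as did those of TUBB2B, TUBB6 and TUBB2A. Overlap across libraries does not show that neighbours were alike, since all members were measured in the same libraries. Within the parental libraries, TUBB2A was always the lowest, while the order of TUBA4A and TUBB3 and that of TUBB2B and TUBB6 changed. Parental library 3 was the lowest of the 3 in all 10 members, as it was in 39.2% of all genes tested, and the coefficient of variation over the parental libraries was between 6.59% (TUBB2B) and 29.9% (TUBA1C).

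**Figure D1:**
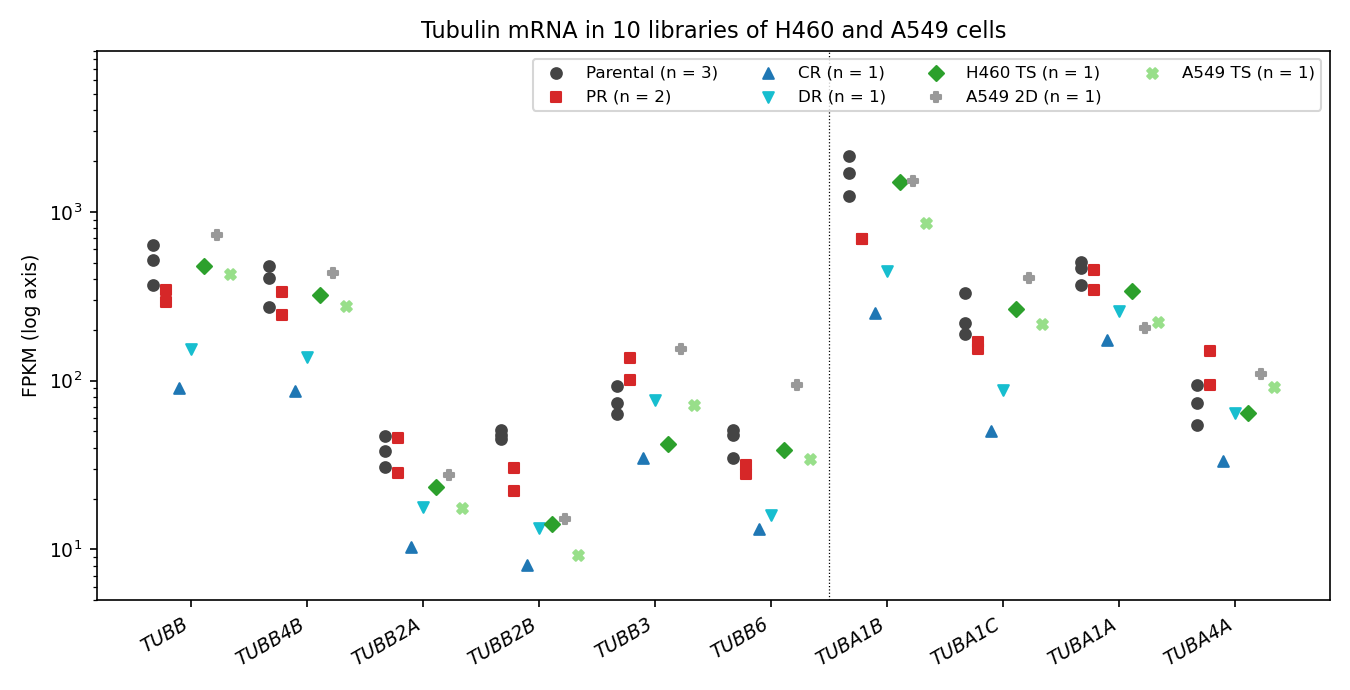
FPKM (log axis) of the 6 β-tubulins, left of the dotted line, and the 4 α-tubulins in each library; every point is 1 library and colours mark the groups. For every gene both PR points lie above the CR and DR points, and for TUBB3 and TUBA4A they also lie above all 3 parental points.

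All 10 tubulins were more abundant in both PR libraries than in the CR and DR libraries. The 2 groups did not overlap in 10 of 10 members, whereas the PR libraries were the higher ones without overlap in 42.0% of all genes tested. The mean FPKM of the PR libraries was 2.25-fold (TUBB6) to 3.64-fold (TUBA4A) that of CR and 1.54-fold (TUBB3) to 2.11-fold (TUBB4B) that of DR. With the quasi-likelihood test of edgeR, which compared 2 PR with 2 DNA-damaging-drug libraries beside 3 parental ones, no member passed an adjusted p of 0.05, and 0 of 19770 genes did (0%). At an unadjusted p under 0.05 all 10 members were included, as were 2479 genes in all (12.5%), 1591 of them higher in PR cells. The log2 fold changes of the members had a median of 1.07, and that over all genes was 0.03. Markers of other cell types also differed between these groups. The 4 summed fibroblast markers were at 13.8 and 9.46 FPKM in PR, 3.60 in CR and 1.82 in DR. Most of the sum was COL1A1 and LUM. COL1A1 was at 6.51 and 6.26 FPKM in PR, 0.783 in CR and 1.41 in DR. LUM was at 6.99 and 3.07 FPKM in PR, 2.69 in CR and 0.362 in DR. DCN was at most 0.319 and PDGFRA at most 0.0296 FPKM in these libraries. CD68 was at 30.7 and 44.2 FPKM in PR, 57.9 in CR and 46.5 in DR, with PTPRC at most 0.157. The part of these markers in the results was not tested. Since whole cultures were sequenced, more tubulin mRNA per cell and more cells with a high level cannot be told apart.

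Among the β-tubulins, TUBB, a main component of the spindle, had 294 and 343 FPKM in the PR libraries, 90.8 in CR and 153 in DR, and a log2 fold change in edgeR of 1.20 (SE 0.32, adjusted p = 0.186). TUBB4B had 244 and 337 FPKM in PR, 86.9 in CR and 138 in DR, and an edgeR log2 fold change of 1.19 (SE 0.32, adjusted p = 0.19). Both genes were lowest in CR, with DR between CR and PR. TUBB2A had 28.3 and 45.8 FPKM in PR, 10.4 in CR and 17.8 in DR, and the largest edgeR log2 fold change among the members, 1.21 (SE 0.32, adjusted p = 0.19). Its near copy TUBB2B had 22.1 and 30.4, 8.10 and 13.4 FPKM, and 1.10 (SE 0.27, adjusted p = 0.177) in edgeR. The PR libraries differed most from each other in TUBB2A, where PR library 2 was 1.62-fold PR library 1, and library 2 was the higher one in 10 of 10 members and in 58.9% of all genes tested. TUBB3, the neuronal class III isotype, had 101 and 136 FPKM in PR, 34.8 in CR and 76.7 in DR, with 0.91 (SE 0.35, adjusted p = 0.336) in edgeR. The mean of PR was 1.54-fold that of DR in TUBB3 and 1.55-fold in both TUBA1B and TUBA1A, so these 3 members were alike as the nearest to DR. TUBB6, a minor isotype, had 27.9 and 31.8 FPKM in PR, 13.2 in CR and 16.1 in DR, with 0.85 (SE 0.23, adjusted p = 0.196) in edgeR.

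Among the α-tubulins, TUBA1B had 688 and 689.9 FPKM in the PR libraries, 253 in CR and 445 in DR, with an edgeR log2 fold change of 0.80 (SE 0.32, adjusted p = 0.344). The PR libraries nearly coincided in this gene. TUBA1C had 154 and 169 FPKM in PR, 50.1 in CR and 88.5 in DR, with 1.04 (SE 0.33, adjusted p = 0.247) in edgeR. TUBA1A had 343 and 454 FPKM in PR, 175 in CR and 258 in DR, and the smallest edgeR log2 fold change, 0.70 (SE 0.26, adjusted p = 0.321). TUBA4A, which gave the widest ratio to CR, had 94.2 and 151 FPKM in PR, 33.6 in CR and 64.5 in DR, with 1.16 (SE 0.36, adjusted p = 0.234) in edgeR. Among these 4 libraries CR was the lowest and DR the next in every α-tubulin.

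CR and DR had 1 library each, so no difference between these drugs was tested. The DR library exceeded the CR library in 10 of 10 members, by 1.21-fold (TUBB6) to 2.20-fold (TUBB3), and in 58.2% of all genes tested, beside 10 of 10 members and 58.9% of genes for PR library 2 over PR library 1. With the drugs as separate arms in edgeR, the log2 fold change of PR lay between 0.96 and 1.62 against CR and between 0.46 and 0.91 against DR. An unadjusted p under 0.05 was reached by 10 members against CR and by 4 against DR, and an adjusted p under 0.05 by none, since 0 of 21362 genes (0%) passed in either. Among libraries with the same form of name, PR library 2 was 1.98-fold (TUBA1B) to 3.26-fold (TUBB2A) the mean of CR and DR, and no member passed in edgeR there, although PR then had 1 library. DESeq2 called 5 members higher in PR cells (TUBB, TUBB4B, TUBB2A, TUBB2B and TUBB6) among 420 genes, limma on log2(FPKM + 1) called 0 members among 101 genes, and edgeR without the filter on low counts called 5 members (TUBB, TUBB4B, TUBB2A, TUBB2B and TUBA4A) among 509 genes. The direction was the same under every alternative tried, and the calls were not.

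**Figure D2:**
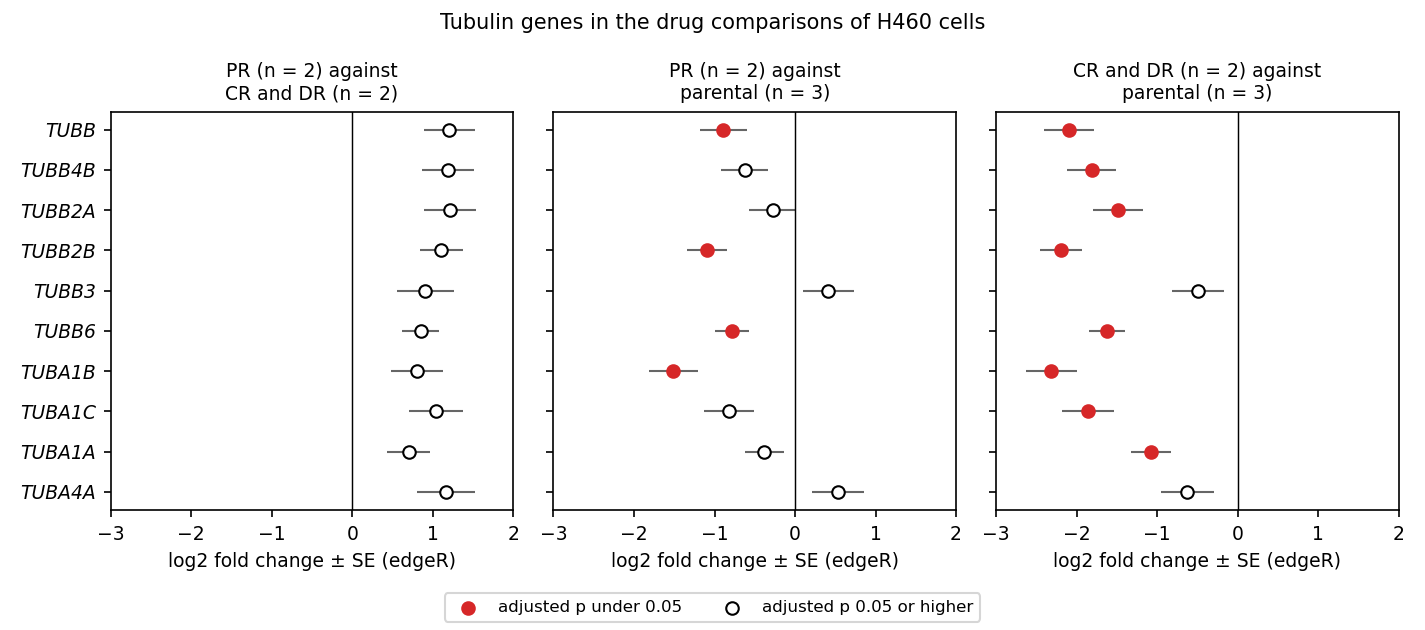
Log2 fold change and SE (edgeR) of each tubulin for PR against CR and DR (left), PR against parental (middle) and CR and DR against parental cells (right); filled points have an adjusted p under 0.05. The left panel has 10 positive and 0 filled points, the middle panel has 4 filled points below 0, and the right panel has 8.

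Against parental cells, which serve as the control in both of the following comparisons, PR cells had lower levels of 4 tubulins, and no tubulin rose, beside 19.4% of all genes tested that rose. The median edgeR log2 fold change of the members was -0.70, and that over all genes was 0.09. TUBA1B, TUBB2B, TUBB6 and TUBB fell, a count of 4 of 10 beside 13.3% of all genes that fell and 32.8% that changed in either direction. TUBA1B had 2137, 1705 and 1244 FPKM in parental libraries and 688 and 689.9 in PR, an edgeR log2 fold change of -1.51 (SE 0.31, adjusted p = 0.00648). TUBB2B had 47.8, 51.3 and 45.0 FPKM in parental libraries and 22.1 and 30.4 in PR, a log2 fold change of -1.09 (SE 0.25, adjusted p = 0.0106). In both genes each PR library was below each parental library by a wide margin.

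TUBB6 had 50.8, 47.9 and 35.0 FPKM in parental libraries and 27.9 and 31.8 in PR, with -0.78 (SE 0.21, adjusted p = 0.022) in edgeR. TUBB had 639.6, 522 and 371 FPKM in parental libraries and 294 and 343 in PR, with -0.89 (SE 0.29, adjusted p = 0.0423). The groups were apart in these genes too, although the lowest parental library was close to the higher PR library. TUBA1C, with 329, 219 and 189 FPKM in parental libraries and 154 and 169 in PR, was also below every parental library, with -0.82 (SE 0.31, adjusted p = 0.0671). The 5 members below every parental library compare with 16.8% of all genes. The calls rested on the PR pair, since 0 members passed without PR library 2 and only TUBA1B passed without PR library 1. With upper-quartile scaling, under which the median of all genes stood at 0.30, TUBA1B and TUBB2B passed and TUBB and TUBB6 did not. TUBB also did not pass in edgeR with the form of the library name as a covariate (adjusted p = 0.0681), without parental library 1 (adjusted p = 0.0980) or without parental library 2 (adjusted p = 0.0774), while the other 3 called members did. Among libraries with the same form of name, PR library 1 was 0.407-fold (TUBA1B) to 1.29-fold (TUBB3) the mean of parental libraries 1 and 3, and PR library 2 was 0.405-fold (TUBA1B) to 2.04-fold (TUBA4A) parental library 2.

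TUBB3 and TUBA4A stood apart in direction. TUBB3 had 92.5, 73.3 and 63.5 FPKM in parental and 101 and 136 in PR libraries. TUBA4A had 93.9, 73.7 and 54.7 FPKM in parental and 94.2 and 151 in PR libraries. The PR libraries were above every parental library in these 2 members, and in 42.2% of all genes tested. For TUBA4A the margin was slight, since PR library 1 and parental library 1 nearly coincided. The edgeR log2 fold changes were 0.41 (SE 0.32, adjusted p = 0.335) for TUBB3 and 0.53 (SE 0.32, adjusted p = 0.219) for TUBA4A, so neither passed the test. They stayed positive under every alternative tried, between 0.21 and 0.65 for TUBB3 and between 0.19 and 0.80 for TUBA4A. The 6 summed neuronal markers were at 3.19, 3.77 and 4.22 FPKM in the parental and 8.62 and 7.51 in the PR libraries. They were also at 8.11 FPKM in CR and 9.06 in DR, where TUBB3 was at 34.8 and 76.7 FPKM. The part of these markers in the level of TUBB3 was not tested. In the parental and PR libraries the sum was mostly SYT1 and SNAP25, while DCX was at 0 and RBFOX3 at most 0.0473 FPKM. The groups overlapped in TUBB4B, TUBB2A and TUBA1A, with log2 fold changes of -0.63 (SE 0.29, adjusted p = 0.124), -0.28 (SE 0.29, adjusted p = 0.485) and -0.38 (SE 0.24, adjusted p = 0.246), respectively.

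Cells that survived cisplatin or doxorubicin had lower levels of 8 of the 10 tubulins than parental cells, beside 9.22% of all genes that fell and 21.7% that changed. No tubulin rose, beside 12.5% of all genes. The median edgeR log2 fold change of the members was -1.72, and that over all genes was 0.06. TUBA1B showed the widest difference, with 253 FPKM in CR and 445 in DR against at least 1244 in parental cells, and an edgeR log2 fold change of -2.31 (SE 0.32, adjusted p = 0.00211). TUBB2B, with 8.10 and 13.4 FPKM against at least 45.0, had -2.20 (SE 0.26, adjusted p = 0.0013), and TUBB, with 90.8 and 153 FPKM against at least 371, had -2.10 (SE 0.31, adjusted p = 0.00271). The other called members had log2 fold changes of -1.86 (TUBA1C), -1.81 (TUBB4B), -1.63 (TUBB6), -1.49 (TUBB2A) and -1.08 (TUBA1A), with edgeR adjusted p from 0.00203 (TUBB6) to 0.0159 (TUBA1A). The same 8 members were below every parental library in both CR and DR, against 21.0% of all genes.

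The members not called were again TUBB3, with -0.50 (SE 0.32, adjusted p = 0.296) in edgeR, and TUBA4A, with -0.63 (SE 0.33, adjusted p = 0.198). In DR their levels, 76.7 and 64.5 FPKM, lay within the parental range, whereas in CR, at 34.8 and 33.6 FPKM, they lay below it. As a ratio to the parental mean, CR was at 0.149 (TUBA1B) to 0.456 (TUBB3) and DR at 0.263 (TUBA1B) to 1.00 (TUBB3). Without the CR library, TUBB2A and TUBA1A no longer passed and 6 members did, and with the form of the library name as a covariate TUBA1A did not pass and 7 members did. Within the form that holds CR and DR, the mean of both was 0.205-fold (TUBA1B) to 0.761-fold (TUBB3) the level of parental library 2.

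Summed over the 10 genes, tubulin mRNA took 10230, 7648 and 6400 TPM (the length-normalized share of transcripts) in the parental libraries, 4899 and 5276 in PR, 1665 in CR and 2862 in DR. The drug libraries all lay below the parental ones, with CR and DR below PR. The ratio of summed α- to β-tubulin TPM was 2.26, 2.16 and 2.27 in parental libraries, 1.78 and 1.58 in PR, 2.09 in CR and 2.06 in DR. Isotype shares were computed per library from TPM, within the 6 β-tubulin or the 4 α-tubulin members, and given without a test. They do not depend on the total. Other tubulins were left out, among them TUBB4A, with 28.8 to 54.5 FPKM in parental libraries and 14.3 to 20.3 in the drug libraries. Shares of all β-tubulin mRNA would be lower, by an amount that varies between libraries.

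TUBB3 made up 6.82%, 6.43% and 7.75% of the mRNA of the 6 β-tubulins in the parental libraries. It made up 14.1% and 14.7% in PR, 14.3% in CR and 18.5% in DR. The share was about the same in PR and CR although the level of TUBB3 was not. TUBB held 45.3% to 47.1% in parental libraries and 36.9% to 41.0% in the 4 drug libraries, and the share of TUBB4B, 33.2% to 36.5%, overlapped between them. TUBA4A made up 3.07%, 2.99% and 2.95% of the mRNA of the 4 α-tubulins in the parental libraries. It made up 7.36% and 10.3% in PR, 6.57% in CR and 7.54% in DR. TUBA1A held 16.4% to 19.9% in parental libraries and 26.8% to 34.2% in drug libraries, and TUBA1B held 67.0% to 69.8% and 47.1% to 53.8%, respectively. TUBB2A held 3.35% to 3.78% of the mRNA of the 6 β-tubulins in parental libraries and 3.94% to 4.96% in drug libraries. TUBB2B held 3.52% to 5.49% and 3.08% to 3.32%, respectively. Shares of TUBB3, TUBB2A, TUBA4A and TUBA1A were thus higher, and those of TUBB, TUBB2B and TUBA1B lower, in all 4 drug libraries than in all 3 parental ones. The splits between TUBB2A and TUBB2B and between TUBA1A and TUBA1B carry the uncertainty of their shared windows.

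**Figure D3:**
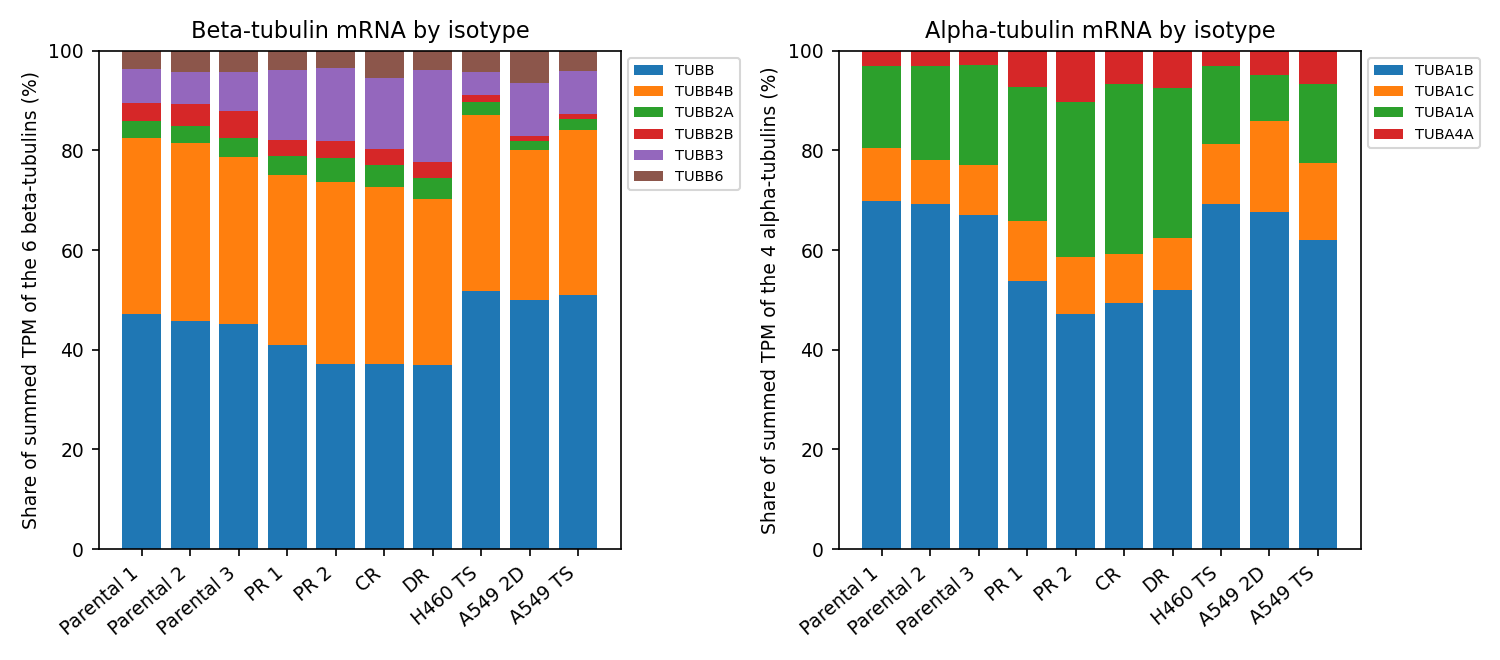
Share (%) of each isotype in the summed TPM of the 6 β-tubulins (left) and 4 α-tubulins (right), 1 bar per library. In the PR, CR and DR bars the TUBB3 segment is 14.1% to 18.5% and the TUBA4A segment 6.57% to 10.3%, against at most 7.75% and 3.07% in the parental bars.

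In tumor spheroids all 10 members had a negative log2 fold change against 2D culture in edgeR with the cell line as a covariate, and none passed the adjusted threshold, which 35 of 18372 genes did (0.191%). Over all genes 48.8% had a positive value. The direction was not common to both lines in every member, since the log2 effect of TUBA1C was 0.12 in H460 and that of TUBA1A was 0.13 in A549, and with 1 library left out the joint value turned positive for TUBA1A without the H460 TS library and for TUBA1C without either A549 library. At an unadjusted p under 0.05 there were 3 members and 1363 genes in all (7.42%). TUBB2B, with 14.1 FPKM in H460 TS against 47.8, 51.3 and 45.0 in parental libraries and 9.22 in A549 TS against 15.2 in A549 2D, had -1.30 (SE 0.31, adjusted p = 0.225). TUBB3, with 42.4 FPKM in H460 TS and, for A549, 71.5 in TS against 154 in 2D culture, had -0.92 (SE 0.24, adjusted p = 0.282), and TUBB2A had -0.66 (SE 0.24, adjusted p = 0.536). Both TS libraries were below their 2D libraries in these 3 genes, and DESeq2 called TUBB2B and TUBB3 lower among 537 genes, while limma called no member among 29 genes. H460 TS lay below every parental library also in TUBA1A, 4 members in all beside 21.7% of all genes tested. In A549, TS was below 2D in 9 members, all but TUBA1A, beside 49.6% of all genes. Each line had 1 TS library, so the lines served as replicates, and the TS medium also lacked serum, which cannot be told apart from suspension growth.

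The spheroid effect was compared between the lines. For TUBB6, A549 TS had 34.5 FPKM against 94.8 in A549 2D, while H460 TS had 38.6 FPKM, within the parental range. The difference between the lines in the log2 effect, A549 minus H460, was -1.23 (SE 0.54, adjusted p = 0.592 in edgeR), the lowest adjusted p of the members. None of the 10 passed, beside 0.495% of all genes. In 2D culture, the 1 A549 library was 2.13-fold the H460 parental mean in TUBB6 and 0.317-fold in TUBB2B, the extremes of the members. TUBA1A was above TUBB4B in all 8 H460 libraries and below it in both A549 libraries. The ratio of α- to β-tubulin TPM was 2.37 in the H460 spheroids, and for A549 it was 1.53 in 2D culture and 1.66 in spheroids.

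**Figure D4:**
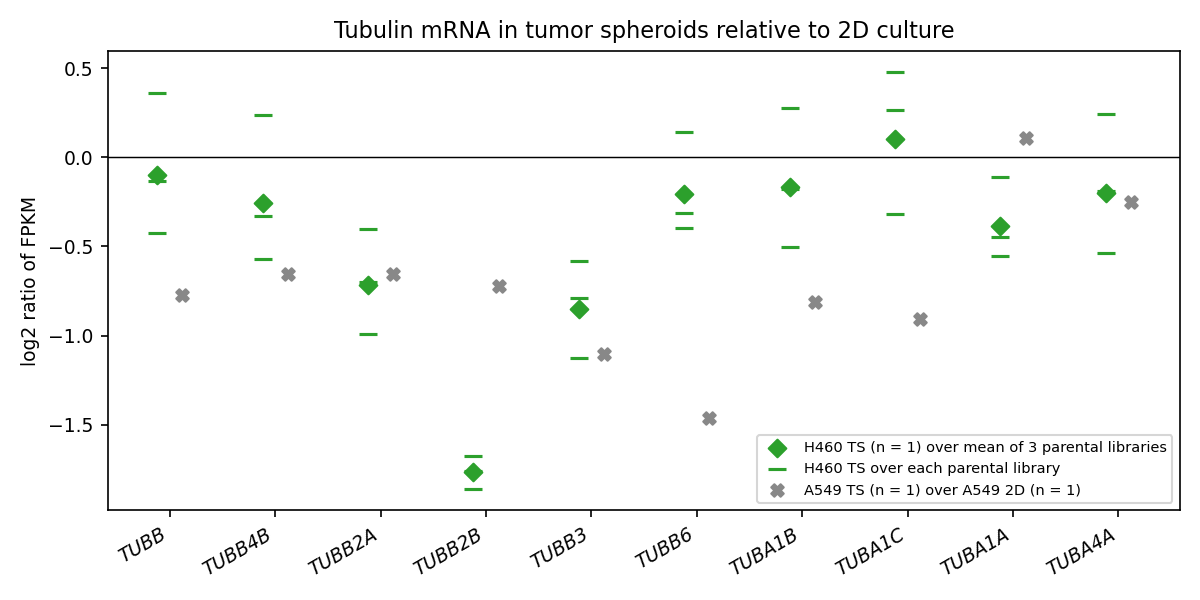
Log2 ratio of FPKM in TS over 2D culture for each tubulin, as the H460 TS library over the mean of (diamonds) and over each of (dashes) the 3 parental libraries, and A549 TS over A549 2D (crosses). All H460 dashes lie below 0 for TUBB2A, TUBB2B, TUBB3 and TUBA1A, and the A549 crosses lie below 0 for 9 genes.

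The pattern of each member over the 8 H460 libraries was compared with that of all tested genes by Pearson's r of log2(FPKM + 1), as a description over libraries that share treatments and depth. Among the 45 pairs of members r was between 0.228 (TUBA1B with TUBB3) and 0.991 (TUBA1C with TUBB), with a median of 0.842. The genes most like TUBB were ING3 (0.988) and DCAF12 (0.987), and those most like TUBA1B were PAXIP1 (0.995) and TBX18 (0.994). TUBA1C was most like RANGAP1 (0.991) and DCAF12 (0.983), TUBB4B like SLC25A51 (0.983) and SLC16A1-AS1 (0.981), and TUBB6 like ING3 and DDX39A (both 0.982). TUBA1A was most like SLC16A1-AS1 (0.979) and WAC (0.969). TUBB3 was most like PDLIM7 (0.947) and ZFAND4 (0.945), and TUBA4A like TRMT44 (0.976) and LPAR3 (0.944). TUBB2A and TUBB2B were most like TUBB2BP1 (0.950 and 0.986), a pseudogene that shares windows with both, followed by SLC16A1-AS1 (0.944) and CAPG (0.974), respectively.

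Genes that fold, nucleate, bind or modify tubulin were taken from lists of the pathway. In PR against CR and DR cells no gene of any list passed the test in edgeR, and in TS against 2D culture none did either. The median log2 fold change of PR against CR and DR was -0.19 over the 22 folding genes. It was -0.08 over the 12 genes of the γ-tubulin ring complex and -0.13 over the 7 autoregulation genes. It was 0.16 over 14 destabilizers and severing enzymes, 0.11 over 30 microtubule-associated genes and -0.003 over 19 modifying enzymes. Over the 10 member tubulins it was 1.07, but over 5 other tubulins it was -0.03. The β-tubulin TUBB4A, which was no member, had 14.3 and 20.3 FPKM in PR, 18.4 in CR and 19.8 in DR. Its log2 fold change was -0.33 (SE 0.34, adjusted p = 0.729) in edgeR, while those of TUBA8 (0.78) and TUBAL3 (1.27) were positive. TTC5, the reader of nascent tubulin, had 5.20 and 4.19 FPKM in PR, 5.12 in CR and 4.96 in DR, within or near its parental range of 4.76 to 6.54. The genes named here and in the next paragraph were chosen after their values were seen.

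The counts against parental cells below stand beside 13.3% of all genes that fell and 19.4% that rose in PR, and 9.22% and 12.5% in CR and DR. Of the 22 folding genes, 14 fell in PR cells and 1 rose, and 5 fell and 1 rose in CR and DR cells. CCT7, a subunit of the CCT chaperonin that folds tubulin, had a log2 fold change of -1.25 (SE 0.22, adjusted p = 0.004) in PR and -0.94 (SE 0.22, adjusted p = 0.0169) in CR and DR. TBCEL, a cofactor-like gene that destabilizes tubulin, was the one that rose, by 0.81 (SE 0.20, adjusted p = 0.0151) and 0.77 (SE 0.20, adjusted p = 0.0249). Of the 12 genes of the γ-tubulin ring complex, the nucleator of microtubules, 9 fell and 1 rose in PR, and 6 fell and 1 rose in CR and DR. TUBG1, γ-tubulin, had -0.74 (SE 0.22, adjusted p = 0.0285) and -0.90 (SE 0.22, adjusted p = 0.0188), respectively. Of 14 tested of 16 destabilizers and severing enzymes, 7 fell and 3 rose in PR, and 7 fell and 2 rose in CR and DR. STMN1, stathmin, which sequesters tubulin dimers, had -3.63 (SE 0.54, adjusted p = 0.00208) and -4.77 (SE 0.58, adjusted p = 0.00136). Of 30 microtubule-associated genes, 6 fell and 3 rose in PR, and 4 fell and 3 rose in CR and DR, shares not far from those over all genes, with the spindle genes TPX2 at -3.06 (SE 0.50, adjusted p = 0.00286) and PRC1 at -3.28 (SE 0.47, adjusted p = 0.00181) in PR. Of 19 tested of 22 tubulin-modifying enzymes, 3 fell and 3 rose in PR, also near those shares, and 2 fell and 0 rose in CR and DR. The tubulin acetyltransferase gene ATAT1 had 0.82 (SE 0.20, adjusted p = 0.0148) in PR, where it rose. Among 7 autoregulation genes, 1 fell in PR (CNOT10) and 0 in CR and DR, and among 5 tested of 10 other tubulins 2 fell in each, with TUBB4A, a neuronal β-tubulin, at -1.44 (SE 0.32, adjusted p = 0.00978) and -1.11 (SE 0.32, adjusted p = 0.0351). MC1R, the neighbour of TUBB3, rose in PR, with 0.75 (SE 0.24, adjusted p = 0.0407). TPX2 had 11.5 and 3.25 FPKM in PR, 3.55 in CR and 4.30 in DR, and PRC1 had 9.12 and 2.81, 3.48 and 3.61. In both genes PR library 1 was above CR and DR and PR library 2 was below them, whereas in every tubulin member both were above. The part of such genes in the levels of the members was not tested. STMN1 had 10.4 and 3.70 FPKM in PR, 3.37 in CR and 2.19 in DR. Both PR libraries were above CR and DR in STMN1, as in the members and in 42.0% of all genes tested. The margin of PR library 2 over CR was slight. The log2 fold change of STMN1 in PR against CR and DR was 1.14 (SE 0.52, adjusted p = 0.4075 in edgeR).

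**Figure D5:**
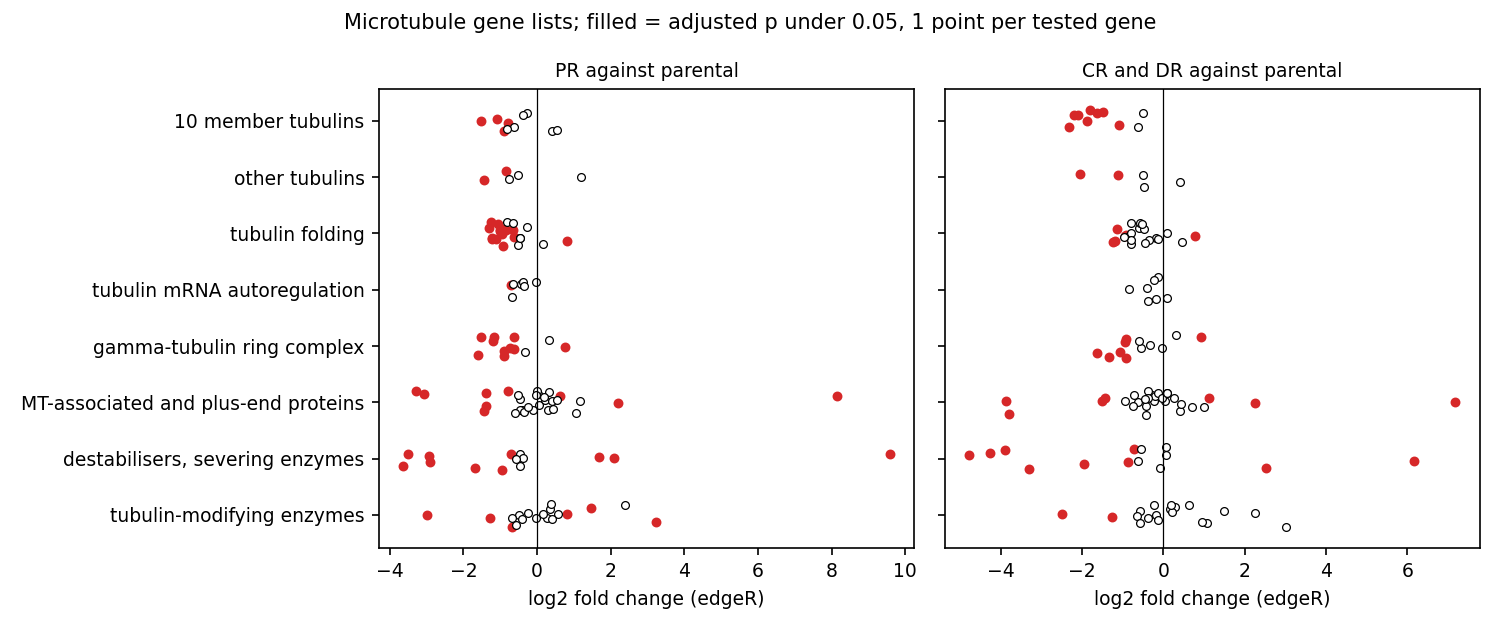
Log2 fold change (edgeR) of each tested gene of the tubulin members and of 7 microtubule gene lists, for PR against parental (left) and CR and DR against parental cells (right); filled points have an adjusted p under 0.05, and the vertical scatter within a row is only for visibility. Folding genes and the γ-tubulin ring complex lie mostly below 0 in both panels, and the points above 6 (MAP6 and STMN4) are genes listed at or near 0 FPKM in parental cells, whose fitted values depend on the prior count.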

How the data were processed

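The 10 libraries of H460 and A549 cells were grouped by their labels. Per the labels, poly(A) libraries were made with TruSeq kits, and the submitters' processing notes name bcl2fastq 1.8.4, Trimmomatic, HISAT2 2.1.0, StringTie 2.1.3b and the GRCh38 build, without their roles. The deposited read counts are whole numbers per gene with different totals, taken as not normalized by the authors. The tool that made them is not given in the sources used here, and they may be estimates from coverage. The FPKM and TPM values were deposited by the authors, normalized for transcript length and library size, and they were used for levels and isotype shares. Drug doses and times were taken from the study's methods. The handling of reads shared between paralogs is not stated.

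The counts were tested with edgeR 4.0.16 in R 4.3.3 (TMM scaling, filterByExpr, quasi-likelihood F test, two-sided, Benjamini-Hochberg adjustment over all genes tested, threshold 0.05). The drug fit held 7 H460 libraries in 3 arms (parental, PR, and CR with DR, since each had 1 library), and the TS fit held 6 libraries and had cell line as a covariate. The spread of the CR and DR arm includes the difference between those drugs. SE was the size of the log2 fold change divided by the square root of F. The fold changes were scaled by TMM and so differ somewhat from ratios of FPKM. Alternatives were RLE and upper-quartile scaling, no filter, DESeq2 1.42.0, limma 3.58.1 (trend option) on log2(FPKM + 1) and log2(FPKM + 0.1) for genes of at least 1 FPKM in at least 2 libraries, CR and DR as separate arms, the form of the library name as a covariate or alone, a replicate block, and each library left out. Tested on simulated data with 200 changed genes among 19770, the fit of PR against CR and DR recovered 28% of 2-fold and 99% of 4-fold changes, with 3.8% false calls. The simulated spread followed the fitted trend without spread particular to a gene. No difference between CR and DR was simulated, and the changed genes were drawn from the more abundant ones. Recovery in the real data may therefore be lower, where STMN3 (4.02-fold, adjusted p = 0.19 in edgeR) did not pass.

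The members, the gene lists and the comparisons were chosen with earlier results of these data known. All members were described, the 2 genes most like each member were named by Pearson's r, and list genes would have been named by size among those passing in PR against CR and DR, of which there were 0. Levels, shares and sequences were handled in Python 3.11.15 (pandas 2.3.3, numpy 2.4.6), and figures in matplotlib 3.10.9.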

Additional observations from a re-analysis of the deposited data

Results flagged for a closer look

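The spheroid effect on TUBA1A pointed in opposite directions in the 2 lines. H460 TS, at 342 FPKM, lay below all 3 parental libraries (501, 466 and 369 FPKM), whereas A549 TS, at 221 FPKM, lay above A549 2D at 206 FPKM. The difference in the log2 effect, A549 minus H460, was 0.49 (SE 0.56, adjusted p = 1 in edgeR), so the difference between the lines did not pass the test. Each TS value rests on 1 library.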

How the results depend on the processing

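The comparison of PR with CR and DR kept its direction for all 10 members under every alternative, but its calls moved from 0 to 5 members without the filter on low counts and to 5 with DESeq2. Over all genes the 0 calls became 509 and 420 there, 101 and 15 with limma on log2(FPKM + 1) and log2(FPKM + 0.1), 1 with one form of library name only, and 66 without parental library 1. For PR against parental cells, the 4 calls became 2 with upper-quartile scaling and 2 with limma under either pseudocount (TUBB2B and TUBA1B each time), and ranged from 0 to 6 with 1 library left out. Over all genes the 6477 calls became 3759 and 3613 with limma, 3211 without PR library 1 and 1580 without PR library 2, and the split of 3841 higher and 2636 lower became 4815 and 1705 with upper-quartile scaling, where the median log2 fold change moved from 0.09 to 0.30. For CR and DR against parental cells the calls stayed between 6 and 8 with 1 library left out, and over all genes 4292 calls became 1375 with the form of name as a covariate, 1805 without the CR library and 1314 without the DR library, and upper-quartile scaling moved the median log2 fold change from 0.06 to 0.19. For TS against 2D culture the 0 calls became 2 with DESeq2 and between 0 and 1 with 1 library left out (TUBB2B without the A549 2D library), and over all genes 35 calls became 537 with DESeq2 and 19 with limma on log2(FPKM + 0.1), and 6 and 10 without parental library 2 or 3, 249 without H460 TS, 348 without A549 2D and 322 without A549 TS. With 1 library left out, the log2 fold change of TUBA1A in TS against 2D culture ranged from -0.38 to 0.12, positive at 0.12 without the H460 TS library, and that of TUBA1C ranged from -0.86 to 0.12, positive at 0.11 without the A549 2D and at 0.12 without the A549 TS library. The causes of these shifts were not tested.

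PR and parental libraries share replicate numbers 1 and 2. With the replicate number as a block, 6 members were called lower in PR cells, and the same 4 libraries without the block gave 6. The differences between numbers 1 and 2 had r = 0.148 between parental and PR cells across 19770 genes, and with 2 pairs this does not establish a pairing. Where a library left out leaves an arm with 1 sample, that sample is assumed to vary like the other groups.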
